A study of Mus musculus with 4 samples.

Results

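Genes of the axon guidance families were read in stimulated CD4+ T cells: ephrins and their Eph receptors, semaphorins with plexins and neuropilins, netrins with Unc5 receptors, Slit and Robo, and the GFR alpha receptors. Membership was set by symbol, taking every row whose name starts with Efna, Efnb, Epha, Ephb, Sema, Plxn, Nrp, Robo, Slit, Unc5, Ntn or Gfra, without Slitrk, Unc50 and Plxdc. This gave 77 of the 21937 rows in the table. The rule brings in a pair of rows that belong to these families by name only. Nrp is listed by RefSeq as a gene of its own, apart from the neuropilin genes Nrp1 and Nrp2, although Nrp is also an older name of Nrp1. Unc5cl encodes an Unc5C-like protein that is not a netrin receptor.

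By its title, the study asked what NEDD4-family ubiquitin ligases do in CD4+ T cell activation. It used splenic CD4+ T cells of B6 mice aged 6 weeks, all treated with PMA and ionomycin, a drug pair that activates protein kinase C and raises calcium in place of the T cell receptor. Of the 4 genotypes, each with 1 library, the first was wild type. The Itch knockout (KO) was labelled Itchf/f Cd4cre, a floxed Itch allele with a Cre driven by the Cd4 promoter. Such a Cre acts in the thymus, so that CD4 and CD8 lineages alike carry the deletion. WWP2 KO was labelled WWP2-/-. The last library was labelled DKO (Itch and WWP2). Whether the wild-type mice carried floxed alleles or Cre, and how many mice were pooled into a library, the sources used here do not give. No unstimulated cells are among the samples, so none of the values below is a response to stimulation.

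Guidance proteins steer growing axons by contact attraction and repulsion, and immune cells reuse many of them. Ephrins are membrane-bound ligands of the Eph receptor tyrosine kinases; the A class is held by a lipid anchor and the B class spans the membrane. Semaphorins signal through plexins, which act on small GTPases, and most of the secreted class 3 semaphorins also need neuropilins. In T cells the class 4 and class 7 semaphorins are known as costimulatory or inhibitory surface molecules, and Nrp1 is known as a marker of regulatory T cells made in the thymus.

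Promoter sequences were taken from RefSeq for the ephrin and the Eph receptor that were highest over wild type in the library labelled double KO, and for the neuropilin gene Nrp1, which was also past the size rule described below in Itch KO. Each line gives the 250 bases before the annotated start, 5′ to 3′ on the gene's strand, in build GRCm38.p6, a later build than the mm9 named for the counts. Capitals mark the GC box, GGGCGG or its reverse complement CCGCCC.
Efna5 (chr17:62881318-62881567, minus strand): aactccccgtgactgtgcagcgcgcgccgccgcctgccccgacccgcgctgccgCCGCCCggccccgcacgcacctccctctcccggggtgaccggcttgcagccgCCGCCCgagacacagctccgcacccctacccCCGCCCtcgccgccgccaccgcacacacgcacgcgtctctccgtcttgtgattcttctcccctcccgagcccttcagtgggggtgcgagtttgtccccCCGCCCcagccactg
Epha2 (chr4:141300971-141301220, plus strand): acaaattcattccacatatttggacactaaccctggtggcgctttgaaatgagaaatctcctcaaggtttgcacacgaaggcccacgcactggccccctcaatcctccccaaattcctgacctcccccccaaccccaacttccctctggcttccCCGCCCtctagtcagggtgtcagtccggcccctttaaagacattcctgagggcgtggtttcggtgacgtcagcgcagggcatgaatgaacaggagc
Nrp1 (chr8:128358823-128359072, plus strand): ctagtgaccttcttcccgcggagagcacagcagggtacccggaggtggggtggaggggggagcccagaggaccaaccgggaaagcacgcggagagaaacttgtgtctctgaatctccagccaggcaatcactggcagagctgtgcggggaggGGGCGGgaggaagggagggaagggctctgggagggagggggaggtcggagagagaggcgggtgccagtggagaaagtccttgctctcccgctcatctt

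The Efna5 window held 4 GC boxes, the Epha2 window 1 and the Nrp1 window 1. Guanine and cytosine made up 74.8% of the Efna5 window, 55.6% of the Epha2 window and 64.4% of the Nrp1 window. Among all 27025 genes with a promoter in that table, 35.4% had a GC box in at least 1 of their windows of this length. Of the 11 guidance genes that were higher than wild type in the library labelled double KO, 10 had a promoter there, and 8 of these 10 held a GC box. A GATA motif (AGATAA or TGATAA, either strand) was in 0 of the 10, against 18.8% of all genes. The AP-1 motif TGANTCA was in 1 of them, Sema4d, against 7.82% of all genes, and the NFAT core TGGAAA was in 2, Ntng2 and Sema4f, against 20.9%. These are letter matches in short windows and describe no binding. The shares are over all genes with a promoter, whether or not they were read in these cells. No share was computed among the genes read here, so the counts among the 10 cannot be tied to their being higher.

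Total counts lay between 17130747 and 17990392 reads per library. At that depth a gene with 0 reads may still have had up to 3 reads' worth of RNA, 0.161 to 0.175 CPM (a gene's count over its library's scaled total). Where 4 values are given below without names, they stand in the order wild type, Itch KO, WWP2 KO and labelled double KO. Wwp2 had 1363, 1332, 4 and 1135 reads. The last value goes against that library's label, so the text names it by the label alone. Itch had 2083, 1914, 1996 and 2389 reads, and a count over the whole gene need not fall when part of it is deleted, so neither Itch label could be checked. The 8 T cell markers were read in every library, and Cd4 itself stood at 235, 246, 169 and 508 CPM. Summed over a whole list, markers of B cells, neutrophils, platelets, erythroid, endothelial and neural cells stood at most at 3.52 CPM in any library. The 7 myeloid markers summed to 4.21, 7.09, 4.26 and 20.5 CPM, the 6 dendritic cell markers to 8.13, 15.8, 5.37 and 23.2 CPM, and the 5 stromal markers to 0.173, 1.33, 0.233 and 11.7 CPM. In the library labelled double KO most of these reads came from 1 gene in each list, Cd68 with 52, 103, 56 and 354 reads, Xcr1 with 54, 113, 48 and 322, and Col1a1 with 1, 21, 3 and 209. Zbtb46 had 64, 106, 40 and 71 reads, Itgax 12, 27, 2 and 38, Siglech 9, 26, 2 and 0, and Itgam 16, 13, 9 and 12. The stromal genes Col3a1, Pdgfra and Dcn had at most 1 read in any library, the dendritic genes Clec9a and Flt3 at most 2, and the myeloid genes Csf1r and Cd14 at most 3. In the opposite direction, the 4 NK cell markers summed to 11.7, 6.05, 7.87 and 2.10 CPM, and the mast cell list, nearly all Kit, to 24.9, 11.0, 28.9 and 5.49 CPM with Fcer1a and Ms4a2 at 0 reads. The CD8 genes summed to 7.44, 15.9, 6.53 and 7.05 CPM.

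Of the 77 guidance rows, 24 had no read in any of the 4 libraries. This is a share similar to that of the whole table, 6483 of 21937 rows. Among the 24 were 5 of the 9 EphA receptor genes, 5 of 20 semaphorin genes, 3 of 4 Robo genes and 3 of 5 GFR alpha genes. The other 53 had reads, and 22 of them reached a mean of 2 CPM over the 4 libraries, the minimum set for a comparison. CPM were scaled by the trimmed mean of M values (TMM). For 19 of the 22, the minimum was also met over the other 3 libraries, while Efna5, Gfra2 and Unc5a met it only through the library labelled double KO and so could only stand out as higher there. A further 10 genes under the minimum had at least 20 reads in 1 library and are described below. The remaining 21 had between 1 and 19 reads in their best library and are only counted. Together the 77 rows took 0.0441% to 0.120% of all reads, with 7781 reads in wild type, against 12913 in Itch KO, 8516 in WWP2 KO and 21631 under the double KO label.

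Compared per length, as CPM per kilobase of exon, the strongest guidance genes of these cells were semaphorins. Sema7a led in all 4 libraries, at 43.1 in wild type, against 84.0 in Itch KO, 48.4 in WWP2 KO and 57.3 under the double KO label. Sema4d came next, followed by Sema4b, in each library, at 15.9 and 5.34 in wild type. Plexins followed in wild type, with Plxnd1 at 4.15 and Plxna1 at 3.15, and the Eph receptor gene Ephb6 between them at 3.52. In the library labelled double KO the places just after these were held by Efna5 at 14.9, Sema4a at 14.4 and Epha2 at 12.1 CPM per kilobase. Exon lengths came from a GRCm38 annotation, not from the one the authors counted on, so this order is approximate and close neighbours in it are not separated.

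**Figure D1:**
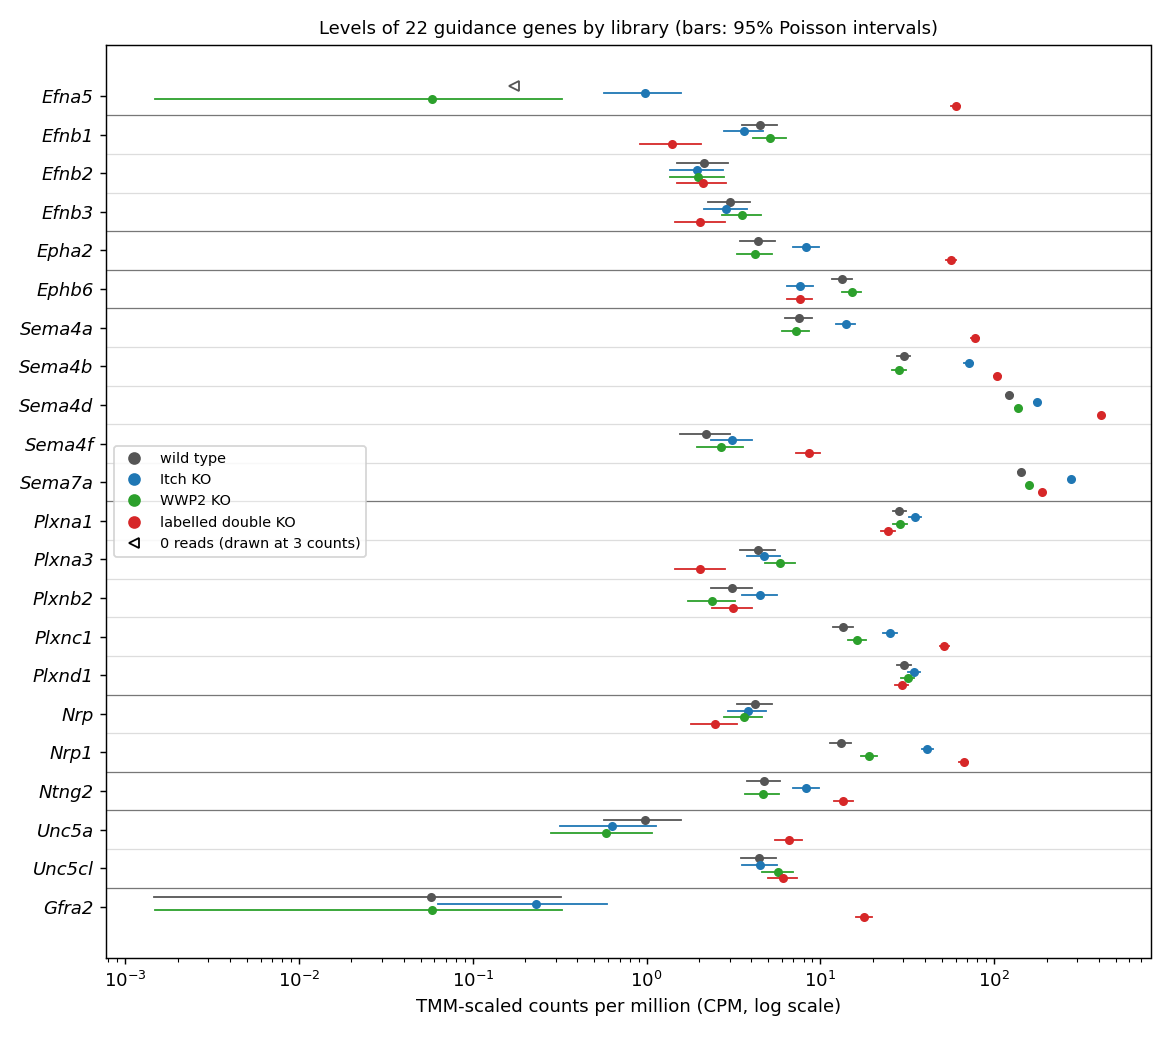
Levels of the 22 guidance genes that reached a mean of 2 CPM, 1 row per gene, with TMM-scaled CPM on a logarithmic axis and 1 point per library; lines are exact 95% Poisson intervals of the single library and cover counting error only. The red points of the library labelled double KO lie far to the right for Efna5 at 59.9 CPM, Epha2 at 56.3 CPM and Gfra2 at 17.9 CPM. They lie to the left of the others for Efnb1, which had 26 reads there. Efna5, Gfra2 and Unc5a reached the mean of 2 CPM only through that library.

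Each genotype having 1 library, neither a replicate spread nor a test of a genotype could be had, and a size rule took their place. A gene was called higher or lower when the log2 ratio of its TMM-scaled counts (with a prior count of 2 that draws ratios of low counts towards 0) reached 1 in either direction, its mean was at least 2 CPM, and the exact 95% counting interval of its fold excluded 1. The intervals in brackets below are those counting intervals. Each such call compares a pair of libraries, and the 3 comparisons with wild type share that library. In whole populations like these, fewer cells of a kind and less RNA per cell cannot be told apart.

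In the library labelled double KO, 11 of the 22 guidance genes were higher than in wild type and 2 were lower. Over all 9926 genes that met the minimum, 12.3% were higher and 6.34% lower. The median log2 ratio of the 22 was 0.97, against -0.03 over all genes. Efna5, with no read in wild type, is the highest of the 22 also at its lower bound, so the bound cannot move that median. Among the 19 genes that did not need this library to meet the minimum, 8 were higher and 2 lower, with a median log2 ratio of 0.41. A minimum of 10 CPM left 7 higher and 0 lower, and no minimum gave 17 higher and 4 lower. Cd4 was 2.16-fold higher in the same library (2.09 to 2.25), and the myeloid, dendritic and stromal lists were higher there too; their part in these differences was not tested.

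The ephrin-A class was represented by 1 gene. Efna5, which encodes a lipid-anchored ligand of EphA receptors, had 0 reads in wild type, against 17 in Itch KO, 1 in WWP2 KO and 1113 under the double KO label. It was thus close to unread in 3 libraries and among the stronger guidance genes in the library labelled double KO. It met the minimum only through that library and so could only stand out as higher there. Its level there was 346-fold that of wild type if wild type is counted at 3 reads, and at least 281-fold by the counting interval. It was 61.1-fold higher (38.0 to 105) than in Itch KO. Against WWP2 KO, on 1 read, the ratio was 1027 (184 to 40588). The log2 ratio to WWP2 KO, 8.45 with the prior count, was the highest among all 9926 genes compared. The other ephrin-A genes, Efna1 to Efna4, had between 0 and 8 reads in any library.

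The B class did not share this pattern. Efnb1, a membrane-spanning ligand of EphB receptors, had 78 reads in wild type, against 63 in Itch KO, 88 in WWP2 KO and 26 under the double KO label. It was lowest in that library, 3.22-fold below wild type (2.04 to 5.22), 2.60-fold below Itch KO (1.62 to 4.27) and 3.67-fold below WWP2 KO (2.35 to 5.92). Efnb3 had 52, 50, 61 and 38 reads and passed the rule in none of the comparisons; its log2 ratio to wild type in the library labelled double KO was -0.53. Efnb2 had 37, 34, 34 and 39 reads, values that the counting error does not separate.

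Among the receptors, Epha2 was the EphA gene with most reads. It encodes a tyrosine kinase that binds A-class ephrins, and it had 76 reads in wild type, against 144 in Itch KO, 72 in WWP2 KO and 1047 under the double KO label. Counting error did not separate wild type from WWP2 KO, Itch KO was above both, and the library labelled double KO was far above all. The fold over wild type was 12.9 (10.2 to 16.4), and that over Itch KO was 6.79 (5.70 to 8.13). Epha2 and Efna5, a receptor and a ligand that can bind each other, thus had their highest level in the same library. So did 40.3% of all genes that met the minimum, and Efna5 met it only through that library. Epha1, under the minimum, had 1, 3, 6 and 23 reads.

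No EphB receptor gene passed the rule in any comparison. Ephb6, a family member whose kinase domain is inactive and which is known from T cells, had 230 reads in wild type, against 133 in Itch KO, 259 in WWP2 KO and 141 under the double KO label. Both libraries with Itch in their label were lower than both without it. The log2 ratios to wild type were -0.78 and -0.80, neither of which reached the 2-fold rule; their counting intervals, 1.39 to 2.16 and 1.41 to 2.17 times lower, excluded 1. Ephb2 had 26, 20, 16 and 11 reads, below the minimum.

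Semaphorins of class 4, membrane proteins of lymphocytes and other cells, made up 4 of the 11 higher genes. Their 6 rows summed to 2843 reads in wild type, against 4633 in Itch KO, 3045 in WWP2 KO and 11266 under the double KO label. Sema4a, known as a costimulatory ligand for T cells, had 130, 243, 124 and 1443 reads. It was 10.4-fold higher (8.65 to 12.5) over wild type in the library labelled double KO and 5.54-fold higher (4.83 to 6.37) than in Itch KO. Sema4d, also called CD100, had 2119, 3056, 2347 and 7695 reads and was 3.39-fold higher than wild type (3.23 to 3.56). For both genes Itch KO stood between wild type and the library labelled double KO.

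Sema4b had 523 reads in wild type, against 1237 in Itch KO, 487 in WWP2 KO and 1942 under the double KO label. Here Itch KO was already past the rule, and the library labelled double KO was 3.46-fold above wild type (3.14 to 3.82) but only 1.47-fold above Itch KO (1.36 to 1.57), which did not pass. Sema4f had 38, 54, 46 and 159 reads and was 3.90-fold higher than wild type (2.73 to 5.72). The class 4 members under the minimum were Sema4g at 21, 22, 15 and 8 reads and Sema4c at 12, 21, 26 and 19, with log2 ratios to wild type of -1.28 and 0.50 in the library labelled double KO.

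Sema7a, a lipid-anchored semaphorin that binds an integrin and plexin C1, followed another order. It had 2464 reads in wild type, against 4804 in Itch KO, 2735 in WWP2 KO and 3514 under the double KO label. Its highest level was in Itch KO, not in the library labelled double KO. The fold of Itch KO over wild type was 1.95 (1.86 to 2.05), just short of the rule, and the library labelled double KO stood at 0.683 of the Itch KO level (0.653 to 0.713).

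Plexins, the semaphorin receptors, split. Plxnc1, the plexin receptor of Sema7a, had 233 reads in wild type, against 435 in Itch KO, 278 in WWP2 KO and 961 under the double KO label. It was 3.85-fold higher there than in wild type (3.33 to 4.46) and 2.06-fold higher than in Itch KO (1.84 to 2.31). Plxna3 was the member that was lower, with 76, 82, 101 and 38 reads, 2.14-fold below wild type (1.43 to 3.25). That call was lost when libraries were scaled by total counts, where the log2 ratio was -0.99 instead of -1.06; against Itch KO and WWP2 KO it stood under each scaling.

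Plxnd1, Plxna1 and Plxnb2 stayed within the 2-fold rule. Plxnd1 encodes a receptor of Sema3e known from thymocytes and had 525 reads in wild type, against 601 in Itch KO, 546 in WWP2 KO and 546 under the double KO label. Plxna1 had 495, 609, 493 and 454 reads, and Plxnb2 had 54, 78, 41 and 58. In none of the 5 comparisons did one of these pass; the log2 ratios to wild type in the library labelled double KO were -0.04 for Plxnd1, -0.22 for Plxna1 and 0.00 for Plxnb2. The Plxna1 exons overlap an antisense transcript in the GRCm38 annotation, and without a stated strand setting its reads cannot be told apart from that transcript's.

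Nrp1, a coreceptor of class 3 semaphorins and of VEGF, had 227 reads in wild type, against 714 in Itch KO, 327 in WWP2 KO and 1239 under the double KO label. Every other library was above wild type. It was 5.09-fold higher (4.42 to 5.89) in the library labelled double KO, and the step from Itch KO to that library was 1.62-fold (1.48 to 1.78), short of the rule. Nrp2, the other neuropilin gene, had 15, 28, 46 and 9 reads and was thus lowest where Nrp1 was highest. Counting error did not separate that level from wild type (0.216 to 1.37). The separate row Nrp had 73, 66, 62 and 46 reads and passed the rule nowhere, with a log2 ratio to wild type of -0.74 in the library labelled double KO.

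The netrin and GDNF branches each held 1 gene with a large difference. Unc5a, a netrin receptor gene, had 17 reads in wild type, against 11 in Itch KO, 10 in WWP2 KO and 122 under the double KO label, 6.69-fold more than wild type (4.01 to 11.9). Gfra2, a coreceptor for neurturin that signals through the kinase Ret, had 1, 4, 1 and 332 reads. Its ratio was 309.7 to wild type (55.2 to 12270) and 77.5 to Itch KO (30.0 to 286). Both were low in 3 libraries and read well in the library labelled double KO. They met the minimum only through that library and so could only stand out as higher there. Ret itself had 7, 7, 4 and 13 reads, and the netrin receptor gene Dcc had 0 reads in every library; this pair was looked up after the values of their partners were seen.

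Ntng2, which encodes a membrane-anchored netrin-G that does not bind the classical netrin receptors, had 82 reads in wild type, against 144 in Itch KO, 80 in WWP2 KO and 251 under the double KO label, where it was 2.86-fold higher than in wild type (2.22 to 3.71). Part of its exons is shared in the GRCm38 annotation with a transcript named 6530402F18Rik on the same strand, which makes its read count uncertain; shorter same-strand transcripts also lie within the exons of Nrp1, Sema4a and Plxnc1. The ligand gene Ntn1 had 22, 20, 29 and 21 reads, which counting error does not separate. Unc5cl had 77, 78, 98 and 113 reads and passed the rule nowhere. Slit genes had at most 7 reads and Robo genes at most 1 in any library.

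**Figure D2:**
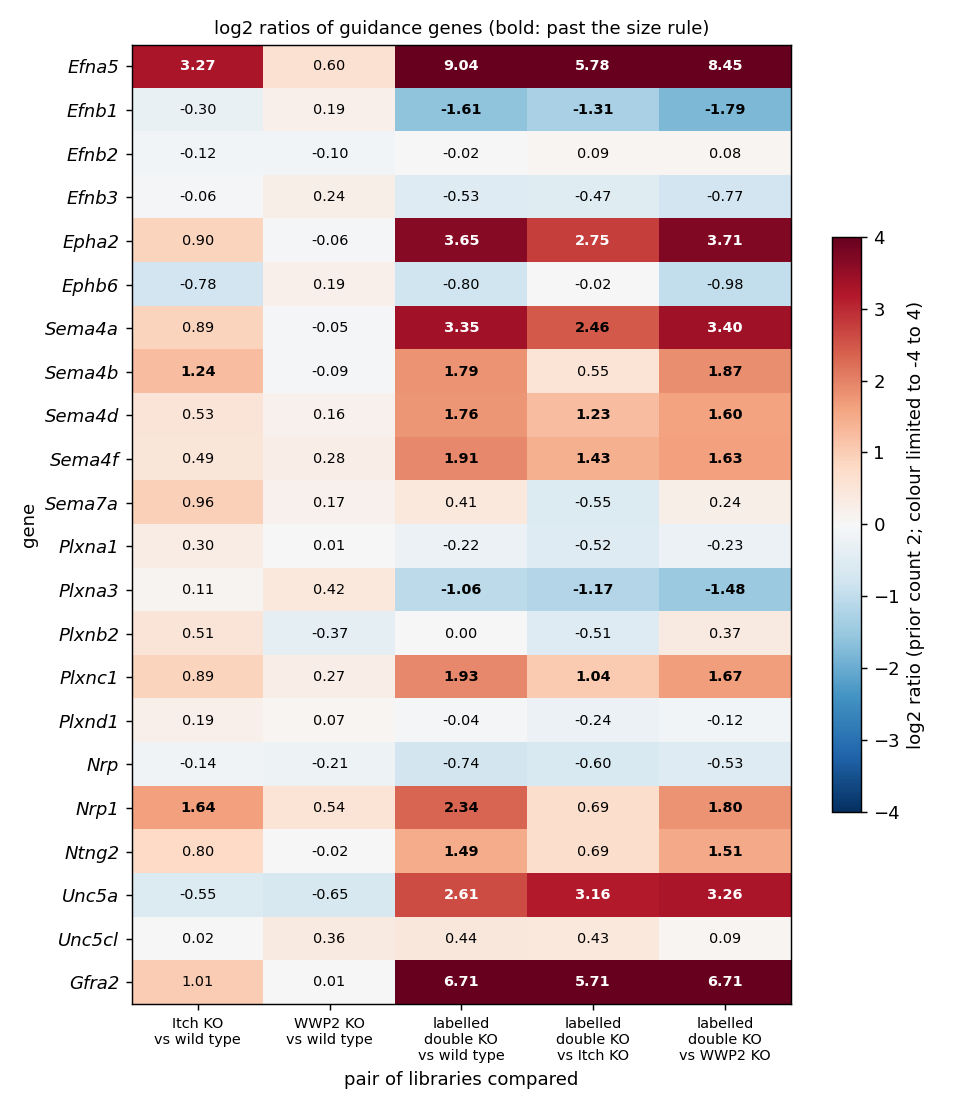
Log2 ratios (prior count 2) of the 22 guidance genes in 5 pairs of libraries, genes in rows by family, red for higher and blue for lower in the first-named library; the colour scale stops at 4 and bold type marks values past the size rule. The WWP2 KO column holds no bold value, and the 3 columns of the library labelled double KO hold 11, 8 and 11 higher and 2 lower genes each.

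Against Itch KO, the library labelled double KO had 8 guidance genes higher and 2 lower, where 9.18% and 5.16% of all 9926 genes were. The 8 were Efna5, Epha2, Gfra2, Plxnc1, Sema4a, Sema4d, Sema4f and Unc5a, and the lower genes were Efnb1 and Plxna3. Of the 19 genes that did not need this library to meet the minimum, 5 were higher. Nrp1, Sema4b and Ntng2, which were past the rule against wild type, were not past it here, with log2 ratios of 0.69, 0.55 and 0.69. Against WWP2 KO the counts were 11 and 2, with 11.6% and 6.05% of all genes, and 8 and 2 among the 19 genes. The median log2 ratio was 0.94 over the 22 and 0.24 over the 19. Epha2 was 13.4-fold higher (10.6 to 17.3) and Unc5a 11.3-fold higher (5.92 to 24.1) in that comparison, Unc5a being one that met the minimum only through this library.

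The Itch KO library differed less from wild type. In it, 3 guidance genes were higher than in wild type and 0 lower, where 4.89% and 0.846% of all genes were. Nrp1 was 3.14-fold higher (2.70 to 3.67) and Sema4b 2.36-fold higher (2.13 to 2.62). Efna5 was at least 4.12-fold higher by its counting interval, on 17 reads against 0. It met the minimum only through the library labelled double KO. With the minimum and the TMM factors set without that library, 2 genes remained past the rule, Nrp1 and Sema4b.

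Several members came close to the rule in Itch KO without reaching it. Besides Sema7a at a log2 ratio of 0.96, these were Epha2 at 0.90, Sema4a at 0.89, Plxnc1 at 0.89 and Ntng2 at 0.80, and the counting interval of each excluded 1. The median log2 ratio of the 22 genes was 0.50, against -0.02 over all genes, and 16 of the 22 were above 0, where 4578 of all 9926 genes were. Among the 19 genes that met the minimum without the library labelled double KO, the median was 0.49 and 14 were above 0. In the Itch KO library the CD8, dendritic and myeloid lists stood at 15.9, 15.8 and 7.09 CPM, against 7.44, 8.13 and 4.21 CPM in wild type. Their part in these differences was not tested. Gfra2 reached a log2 ratio of 1.01, but on 4 reads against 1, and its interval (0.396 to 197) did not exclude 1.

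WWP2 KO differed least from wild type. No guidance gene was past the rule in either direction, where 0.282% of all genes were higher and 0.161% lower. The log2 ratios ran from -0.65 for Unc5a to 0.60 for Efna5, both on few reads, with a median of 0.12. Of these 22, the counting interval excluded 1 for Nrp1, at 1.46-fold the wild-type level (1.23 to 1.73), Plxnc1 at 1.21-fold (1.01 to 1.44), and Sema4d and Sema7a at 1.12-fold each (1.06 to 1.19 for both). Without a minimum, Nrp2 at 3.10-fold (1.70 to 5.98) and Sema4c at 2.19-fold (1.07 to 4.77) passed the other parts of the rule.

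A pair of comparisons that share no library can be set side by side: Itch KO against wild type, and the library labelled double KO against WWP2 KO. Of the 22 guidance genes, 17 had a log2 ratio of the same sign in both, or 77.3%, where 64.2% of all 9926 genes did. Efna5, Gfra2 and Unc5a met the minimum only through the library labelled double KO. They could thus only stand out as higher in the second pair. Nrp1 (1.64 and 1.80) and Sema4b (1.24 and 1.87) had similar values in both pairs. Epha2 (0.90 and 3.71), Sema4a (0.89 and 3.40) and Efna5 (3.27 and 8.45) were much higher in the second. Unc5a (-0.55 and 3.26) and Plxna3 (0.11 and -1.48) were of opposite sign, as were Efnb2, Plxna1 and Plxnd1, whose values were all between -0.23 and 0.30.

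**Figure D3:**
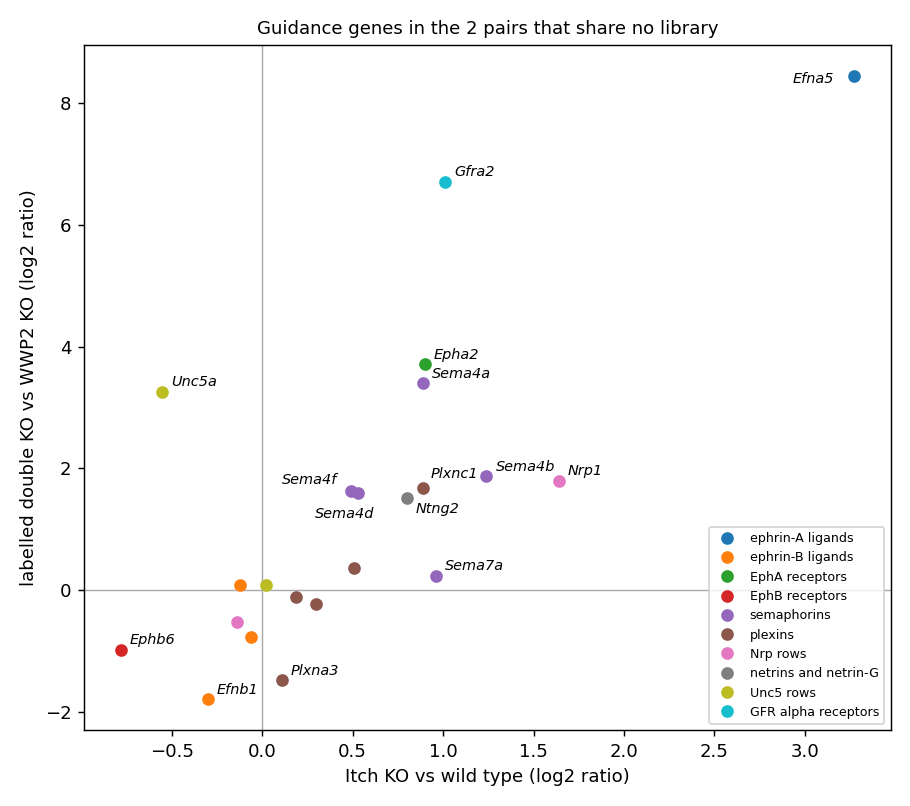
Log2 ratio of each of the 22 guidance genes in Itch KO against wild type (horizontal axis) and in the library labelled double KO against WWP2 KO (vertical axis), 1 point per gene, coloured by family; the axes have different scales. Efna5 and Gfra2 stand at the top with vertical values of 8.45 and 6.71, and 17 of the 22 points have the same sign on both axes. Efna5, Gfra2 and Unc5a met the minimum only through the library labelled double KO.

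Of the 10 thinly read genes, 4 reached 20 reads only in the library labelled double KO, so that their being highest there is part of how they were chosen. Sema3e, a secreted ligand of plexin D1, had 5 reads in wild type, against 16 in Itch KO, 2 in WWP2 KO and 63 under the double KO label, a ratio of 11.8 to wild type (4.78 to 37.4). Plxnb1, a receptor of Sema4d, had 18, 19, 19 and 63 reads, a ratio of 3.27 (1.91 to 5.86); an antisense transcript overlaps it in the GRCm38 annotation. Sema6b had 2, 0, 0 and 29 reads, and Epha1, named above, was another; its exons overlap those of the gene Zyx on the other strand.

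Sema6d stood apart from these. It had 13 reads in wild type, against 43 in Itch KO, 12 in WWP2 KO and 5 under the double KO label. Sema6d reached the read count required of these genes only in Itch KO, so its being highest there is part of how it was chosen. Its lowest count was in the library labelled double KO. Counting error did not separate that level from wild type (0.100 to 1.07) or from WWP2 KO (0.106 to 1.17). The ratio of Itch KO to wild type was 3.31 (1.75 to 6.70), and the library labelled double KO was 9.22-fold below Itch KO (3.66 to 29.8). Since all 10 genes were under the minimum of 2 CPM, none counts among the called genes.

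**Figure D4:**
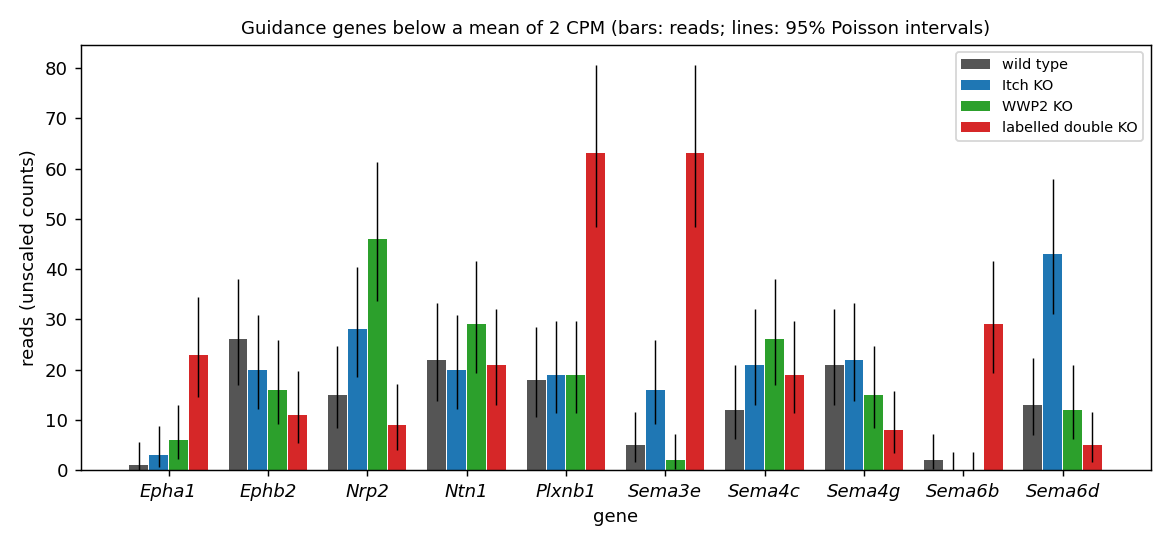
Unscaled reads of the 10 guidance genes under a mean of 2 CPM with at least 20 reads in 1 library; bars are reads per library and lines exact 95% Poisson intervals, which cover counting error only. Plxnb1 and Sema3e reach 63 reads in the library labelled double KO, Sema6d reaches 43 in Itch KO and Nrp2 reaches 46 in WWP2 KO.

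Beyond the receptors and ligands, a list of signalling partners was read in the same way; 92 of its 95 genes were in the table and 56 met the minimum. In the library labelled double KO, 14 of the 56 were higher than wild type and 4 lower, with a median log2 ratio of 0.39. Over all genes 12.3% were higher and 6.34% lower, and the lower share of the list, 7.14%, is near that background. In Itch KO 5 were higher and 1 lower, 8.93% and 1.79% against 4.89% and 0.846% of all genes, median 0.07, and in WWP2 KO 0 and 0, median 0.00. Crmp1, a collapsin response mediator that acts below semaphorin 3A in neurons, had 37 reads in wild type, against 115 in Itch KO, 50 in WWP2 KO and 684 under the double KO label, 17.2-fold above wild type (12.4 to 24.7). Fes, a tyrosine kinase that can bind plexins, had 35, 194, 58 and 477 reads and was 12.7-fold higher (9.01 to 18.5). Both had an intermediate level in Itch KO, at log2 ratios of 1.59 for Crmp1 and 2.41 for Fes.

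Farp1, Srgap3, Plxdc2 and Lgals1 were also higher in the library labelled double KO. Srgap3 and Plxdc2 met the minimum only through this library and so could only stand out as higher there. Both are among the 14 higher partners, and Srgap3 is also among the 5 higher in Itch KO. Farp1, a guanine nucleotide exchange factor, had 43, 179, 71 and 364 reads, and Srgap3, a GTPase-activating protein of the Slit-Robo pathway, had 13, 31, 20 and 115. Their log2 ratios to wild type in the library labelled double KO were 2.93 and 2.87. Plxdc2, a plexin-domain protein outside the plexin family, had 21, 28, 24 and 162 reads. Lgals1, the galectin-1 gene, was the highest of the list, with 252, 1156, 220 and 7919 reads and a fold of 29.3 (25.9 to 33.4).

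Lower partners included receptors and ligands of the genes above. Cd72, a receptor of Sema4d, had 59 reads in wild type, against 27 in Itch KO, 48 in WWP2 KO and 10 under the double KO label, 6.32-fold below wild type (3.21 to 13.9). Its reads thus went opposite to those of Sema4d. Cd72 is best known from B cells, whose markers summed to 40, 61, 43 and 23 reads; the part of B cells in this difference was not tested. Vegfa, whose product binds Nrp1, had 354, 223, 345 and 88 reads and was 4.31-fold lower (3.41 to 5.51).

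Arhgap39, Mical3 and Abl2 were the other lower partners described. Arhgap39, a GTPase-activating protein that binds Robo receptors, had 435, 358, 462 and 199 reads, 2.34-fold below wild type (1.98 to 2.79). Mical3, of an actin-oxidising enzyme family that acts below plexins, had 82, 68, 106 and 39 reads, 2.25-fold below (1.52 to 3.39). Abl2, a tyrosine kinase, had 3106, 3821, 3754 and 1772 reads and passed the rule against Itch KO and WWP2 KO but not against wild type.

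**Figure D5:**
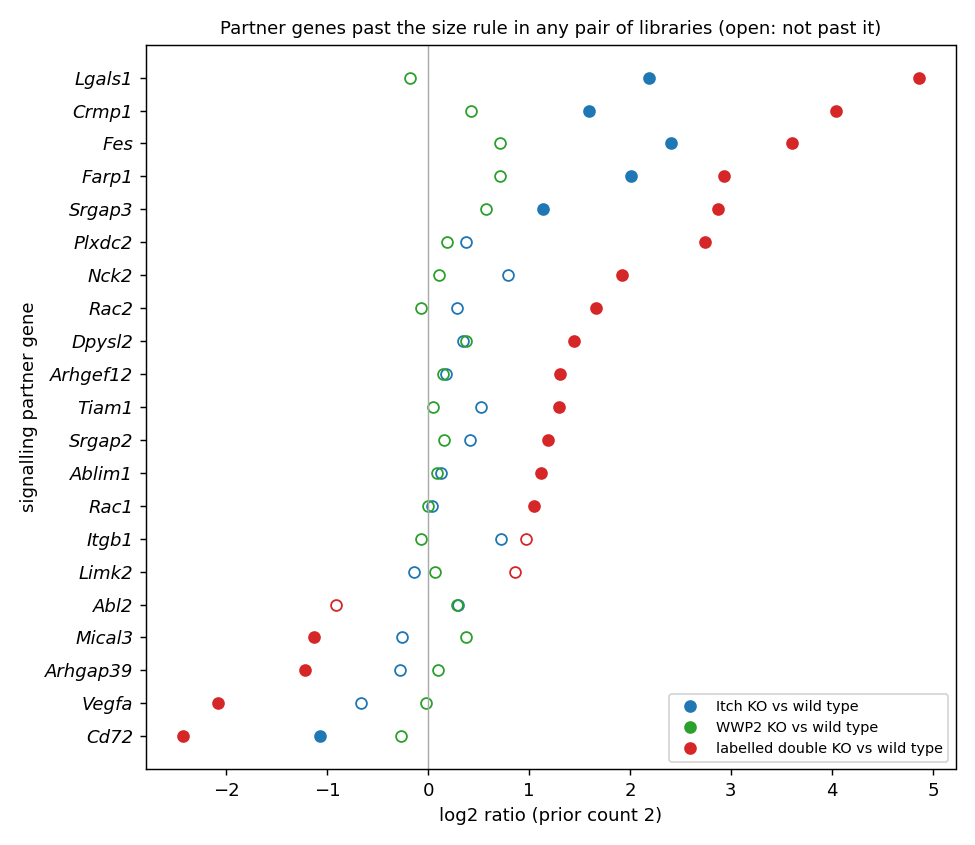
Log2 ratios to wild type (horizontal axis, prior count 2) of the signalling partner genes that passed the size rule in any of the 5 pairs of libraries, 1 row per gene; filled points passed the rule in the comparison shown and open points did not. The red points of the library labelled double KO run from -2.43 for Cd72 to 4.86 for Lgals1, and no green point of WWP2 KO is filled.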

How the data were processed

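RNA sequencing reads had been counted per gene symbol by the authors in 1 deposited table of raw counts, with no normalization and 1 column per library. The submitters' processing notes name mm9 with Bowtie 1.0.0, TopHat 1.4.1 and HTSeq 0.7.1; for annotation and strand setting the entry is: not given in the sources used here. Symbols were matched to members by a fixed pattern. Depth was even across libraries. TMM factors from all 4 libraries came from edgeR 4.0.16 in R 4.3.3 and lay at 0.984 (wild type), 0.983 (Itch KO), 1.00 (WWP2 KO) and 1.03 (labelled double KO). Other computation used Python 3.11.15 with scipy 1.17.1, pandas 2.3.3 and numpy 2.4.6, and matplotlib 3.10.9 for figures. Fold intervals are exact conditional binomial and level intervals exact Poisson, both at 95%. They cover counting error only, because 1 library per genotype gives no spread between replicates. Reads counted without molecular identifiers can repeat a molecule, so the intervals may be too narrow even for counting error. No p-value was computed, because a genotype had 1 library. On simulated counts with 200 changed genes the rule was tested first. Exon lengths came from GENCODE M21 (76 of 77 symbols matched) and promoters from RefSeq GRCm38.p6 (65 matched).

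Named were members with a mean of 2 CPM, members with 20 reads in 1 library, Itch and Wwp2, and up to 4 highest and 4 lowest called partners per comparison. Members and lists were chosen with earlier results of these data known. Alternatives were DESeq2 1.42.0 size factors, total counts, no minimum or 10 CPM, and prior counts of 0.5 and 5.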

Additional observations from a re-analysis of the deposited data

How the results depend on the processing

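Of 64 counts of called guidance genes under other settings, 50 stayed within 1.5 times the reported count. With no minimum CPM, more genes were called: 6 higher in Itch KO and 2 higher in WWP2 KO against wild type; in the library labelled double KO, 17 higher and 4 lower against wild type, 13 higher and 6 lower against Itch KO, and 4 lower against WWP2 KO. With a minimum of 10 CPM, fewer genes could be called in that library, 7 higher and 0 lower against wild type, 5 and 0 against Itch KO, and 7 and 0 against WWP2 KO. Both follow from the number of genes compared. With total counts, 1 gene was lower against wild type, Efnb1, since Plxna3 then missed the rule. DESeq2 size factors and prior counts of 0.5 and 5 changed no count. Setting the minimum and the TMM factors from the 3 libraries other than the one labelled double KO, an alternative chosen after seeing the data, left 2 genes higher in Itch KO and 0 in WWP2 KO. Of 919 log2 ratios of single genes under other settings, 916 moved by at most 0.5 times the width of their counting interval and 3 moved further. The 919 include ratios under another minimum CPM, which could not move because the minimum does not enter a ratio. Where a library had 0 reads, the interval was open at that end and the ratio could not count as moved further. Of the called ratios, 0 changed sign. Called ratios were at least 1 in size and the scalings shifted the median ratio by at most 0.07, so a change of sign was hardly possible. No paired analysis was possible because each genotype has 1 library. Depth limits the genes under 2 CPM, and the lack of replicates limits them all.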
